A study of Mus musculus with 8 samples.

Results

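The striatum sends its output through a direct and an indirect pathway, and 7 genes of the indirect-pathway projection neurons are described here. They are the transcription factor genes Six3 and Sp9, the antisense transcript Six3os1, the receptor genes Drd2, Adora2a and Gpr6, and the neuropeptide gene Penk. They were found by symbol, with no measured value in the rule, and 6 of the 7 are among the 16913 genes of the authors' deposited table; Gpr6 is not listed there. RNA came from lateral ganglionic eminence (LGE), the embryonic source of striatal projection neurons, dissected at embryonic day 14.5. There were 4 control samples, littermates of genotype Dlx5/6-Cre;Meis2F/+, and 4 Meis2-CKO samples of genotype Dlx5/6-Cre;Meis2F/F, all with C57BL/6J and CD1 mixed in their background. Every sample therefore carried the Cre driver and at least 1 floxed Meis2 allele, so the control is not a wild type. The driver acts in Dlx-expressing cells of the ventral forebrain, and cells outside that lineage keep their alleles. Meis2 is a homeodomain transcription factor, and the comparison asks what its loss does in the LGE.

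Indirect-pathway neurons project to the external globus pallidus and hold back movement. Mature ones carry the dopamine D2 receptor (Drd2) and an adenosine receptor (Adora2a), which act in opposite directions on cyclic AMP, and release enkephalin, cut from the precursor that Penk encodes. In the embryo the zinc-finger factors Sp8 and Sp9 and the homeobox factor Six3 are needed to make these neurons, and mouse genetics has placed Six3 downstream of Sp8 and Sp9. Gpr6 is a receptor with constitutive activity towards cyclic AMP that is enriched in the same cells in the adult.

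All values are the authors' mean expression signal per genotype, with the log2 change they give for Meis2-CKO relative to control, on a scale with a small constant added to each mean, and their p-values. The signal's unit is not named in the header, the means carry no spread between embryos, and the depth is unknown. They look scaled by gene length, which levels compared between genes assume. In the authors' deposited table Meis2 stood at 204 in control, against 140 in Meis2-CKO (log2 change -0.53, adjusted p = 0.00195). The whole-gene value can include transcripts that lack the floxed part. All 13 LGE transcription factor genes looked up as a check of the tissue were listed, with Dlx1 at 393 and Gsx2 at 20.9 in control by the authors' deposited table. At an adjusted p of 0.05, 132 of 16913 genes passed (0.78%), 92 of them lower in Meis2-CKO (0.544%) and 40 higher (0.237%). Of the 132, 57 were among the 16451 genes with 300 nt of exon or more. The others were shorter or had no match in the annotation used for lengths. In tissue RNA, fewer cells of a type and less RNA per cell cannot be told apart.

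Among the indirect-pathway genes the regulators were expressed at far higher levels than the receptors and the peptide, and 5 of the 6 listed genes had a lower mean in Meis2-CKO. Sp9 had the highest control mean by the authors' deposited table (34.3), followed by Six3 (25.5), Six3os1 (25.1), Adora2a (5.18), Drd2 (3.59) and Penk (2.01). The order was the same in Meis2-CKO, where the same genes stood at 44.5, 16.7, 12.8, 1.84, 1.05 and 0.583. Without a spread between embryos it cannot be said which neighbours in this order differ, and the control means of Six3 and Six3os1 were nearly equal. Among all genes ranked by control mean, Sp9 lay at percentile 81.5 and Six3 at 75.2, whereas Adora2a lay at 41.8, Drd2 at 36.1 and Penk at 28.4. The genes thus fall into 3 that are well expressed at this age and 3 below the median of the table.

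**Figure D1:**
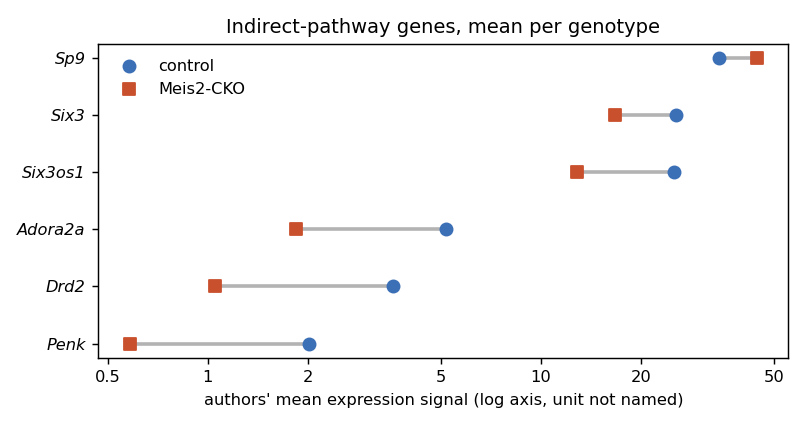
Authors' mean expression signal of the 6 listed indirect-pathway genes on a log axis, with circles for control and squares for Meis2-CKO, each a mean of 4 samples by the labels with no spread given. Sp9 alone lies higher in Meis2-CKO (44.5 against 34.3), and the widest gaps belong to Penk (2.01 and 0.583) and Drd2 (3.59 and 1.05).

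Six3os1 was the only listed member that passed the threshold, as 0.78% of all genes did, 0.544% with lower means. Among genes with 300 nt of exon or more, which leaves out most short RNAs, 0.298% passed with lower means. In the authors' deposited table it fell 1.94-fold, from 25.1 to 12.8 (log2 change -0.95, p = 6.81e-05, adjusted p = 0.0102). Six3 itself had a lower mean, 16.7 against 25.5, and did not pass (log2 change -0.59, p = 0.00803, adjusted p = 0.659, from the authors' deposited table). At an unadjusted p of 0.05, where 2.17% of all genes lie, there were 5 of the 6 listed members: Six3os1, Six3, Adora2a and Drd2 with lower means (1.34% of all genes) and Sp9 with a higher one (0.828%). Over all genes the authors' p-values pile up towards 1, with a median of 0.76 and 80.2% of genes over 0.5. An adjusted p near 1 therefore says little about whether the means are equal. In the authors' p-values the call of Six3os1 was lost under the Benjamini-Yekutieli adjustment, which allows for any dependence between genes (adjusted p = 0.105).

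The Six3 locus lies on chromosome 17 (GRCm38). Six3 (ENSMUSG00000038805) spans 85613608 to 85629302 on the plus strand, with 3 annotated transcripts. Six3os1 (ENSMUSG00000093460), a noncoding transcript with 13 annotated isoforms, spans 85600651 to 85618398 on the minus strand. Their spans overlap by 4791 bases, since 1 Six3 transcript starts 7226 bases upstream of the RefSeq start at 85620834, inside Six3os1. In exons the overlap is 106 bases, which is 1.95% of the 5446 exonic bases of Six3 and 0.892% of the 11884 of Six3os1. From the 5′ end of Six3os1 to the RefSeq Six3 start there are 2436 bases, and the genes run away from each other. No source used here says whether reads were counted by strand, so reads over the shared bases cannot be assigned to either gene. The signal of Six3os1 divided by that of Six3 was 0.986 (control) and 0.766 (Meis2-CKO).

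Other annotated transcripts sit in the gap between the 2 start sites. Gm27427, a 193-base noncoding RNA, stood at 4.01 (control) and 0.932 (Meis2-CKO) by the authors' deposited table (log2 change -1.96, p = 0.00431, adjusted p = 0.394). Gm28528, an antisense transcript that crosses that Six3 start, stood at 0.97 and 0.505 by the authors' deposited table (log2 change -0.79). A further short RNA, Gm27275, which lies wholly within Six3os1 exons on the other strand, was listed at 0 in control and at 0.49 in Meis2-CKO. So the 4 transcripts drawn in the map of the locus had lower means in Meis2-CKO, 1 of them past the threshold, and the short RNA inside Six3os1 had the opposite sign without passing (p = 0.0982, from the authors' deposited table). The 4 are not fully separate measurements. Gm28528 shares 168 exonic bases with Six3, on the opposite strand, and also overlaps Gm27427 in an exon.

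**Figure D2:**
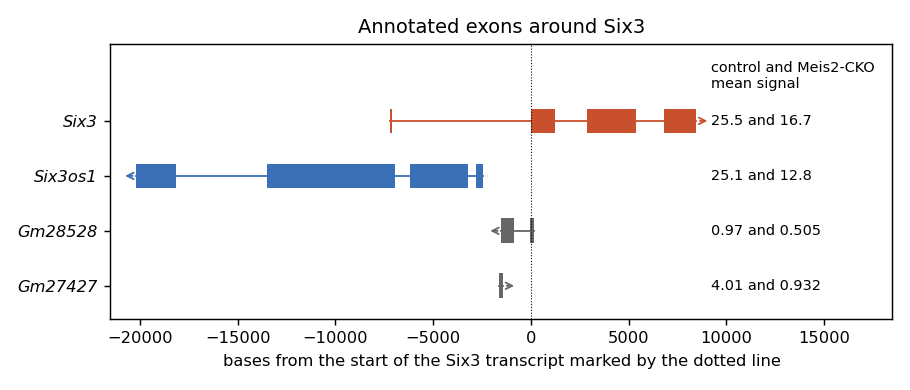
Exons from GENCODE M21 (boxes, all transcripts of a gene merged) for 4 genes around Six3, by distance in bases from its RefSeq start (dotted line), with arrows for the direction of transcription. The authors' means for control and Meis2-CKO stand at the right, from 25.5 and 16.7 for Six3 to 0.97 and 0.505 for Gm28528. The short RNA Gm27275, with the higher mean in Meis2-CKO (0 in control, 0.49 in Meis2-CKO), is not drawn.

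The bases just before the start sites are shown for the genes at this locus, since both had lower means, and below for Sp9 and Drd2, which differ from them in direction or level. They come from RefSeq (GRCm38.p6), where 5 of the 7 genes were matched by symbol; Adora2a and Penk were not matched. Capitals mark matches, on either strand, to TGACAG (the core motif of Meis factors), the same core directly after TGAT (Meis with Pbx), TAATTA (a homeobox motif that Dlx proteins bind) or GGGCGG (the GC box of Sp factors). The search window ran from 250 bases before to 50 bases after the start, and only the bases before it are printed, 5′ to 3′ on the strand of the gene. A match to the longer Meis and Pbx motif would count for both. Positions are counted from the start site, with the last base before it at -1.
Six3, chr17:85620584-85620833, plus strand: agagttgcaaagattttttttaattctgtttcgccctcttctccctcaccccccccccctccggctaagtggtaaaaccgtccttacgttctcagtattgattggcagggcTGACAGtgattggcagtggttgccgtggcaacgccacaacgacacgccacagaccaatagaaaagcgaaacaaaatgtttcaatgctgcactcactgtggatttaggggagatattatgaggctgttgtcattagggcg
Six3os1, chr17:85618397-85618646, minus strand: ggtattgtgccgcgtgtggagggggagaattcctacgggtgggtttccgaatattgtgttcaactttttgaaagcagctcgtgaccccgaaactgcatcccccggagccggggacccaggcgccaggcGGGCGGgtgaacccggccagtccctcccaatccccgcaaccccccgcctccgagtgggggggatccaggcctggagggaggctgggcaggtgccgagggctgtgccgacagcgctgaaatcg

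The Six3 window held 1 match to TGACAG, from -139 to -134 on the strand of the gene. Of 32851 promoter windows of this length in the table, 19.2% held TGACAG, so such a match is common. Six3os1 held 1 GGGCGG, from -122 to -117, a motif found in 35.7% of all windows. Neither window held TAATTA (5.29% of all windows) or the Meis and Pbx motif (0.222%). Gpr6, which is not listed, held 1 TGACAG on the opposite strand, from -59 to -54. The upstream bases of Six3os1 were the richer in G and C, at 66%, against 48.8% for Six3 and a median of 52.4% over all windows. A match is a run of letters and does not show that a factor binds there.

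Sp9 was the member that went the other way. Sp9 (ENSMUSG00000068859, chromosome 2, 73271925 to 73284706, GRCm38) stood at 34.3 (control) and 44.5 (Meis2-CKO) by the authors' deposited table, short of the threshold (log2 change 0.39, p = 0.0173, adjusted p = 1). Sp8, its close relative in sequence and function, stood at 17.3 and 26.8 by the authors' deposited table, also short of it (log2 change 0.64, p = 0.00345, adjusted p = 0.337). The more distant Sp factors had means that lay close together in the genotypes: Sp1 at 19.5 and 20.8, Sp2 at 7.07 and 8.43, Sp3 at 55.9 and 59.8 and Sp4 at 17.2 and 17.6 by the authors' deposited table. The log2 changes of all 6 listed Sp genes lay above 0 (median 0.19), and none passed; the median of all genes was 0.01. The remaining 3 of the 9 Sp genes looked up (Sp5, Sp6 and Sp7) were not listed. Six3 relative to Sp9 went from 0.742 in control to 0.375 in Meis2-CKO.
Sp9, chr2:73271676-73271925, plus strand: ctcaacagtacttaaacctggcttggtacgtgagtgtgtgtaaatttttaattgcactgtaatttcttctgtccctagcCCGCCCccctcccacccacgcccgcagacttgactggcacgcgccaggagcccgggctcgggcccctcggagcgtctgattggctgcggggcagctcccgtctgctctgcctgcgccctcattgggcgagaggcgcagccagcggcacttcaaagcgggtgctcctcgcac
The capitals mark 1 GC box on the opposite strand, from -171 to -166, and the window held none of the other 3 motifs. The 3′ end of Sp9 overlaps Cir1, on the opposite strand, by 270 exonic bases (5.35% of the exonic bases of Sp9), and Cir1 stood at 17.2 and 17 in control and Meis2-CKO by the authors' deposited table.

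Of the other Six genes looked up, Six5 was listed. It stood at 6.51 (control) and 7.42 (Meis2-CKO) by the authors' deposited table (log2 change 0.20, p = 0.603) and did not pass. Six2, Six4 and Six6 were not listed, although Six2 is the next protein-coding gene downstream of Six3.

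The receptor and peptide genes had the largest differences of the members and the lowest levels. Drd2 (ENSMUSG00000032259, chromosome 9, 49340627 to 49408177, GRCm38) stood at 3.59 (control) and 1.05 (Meis2-CKO), a mean 70.7% lower (log2 change -1.65, p = 0.0162, adjusted p = 1, from the authors' deposited table). Adora2a (ENSMUSG00000020178, chromosome 10, 75316877 to 75334784) stood at 5.18 and 1.84, a mean 64.4% lower (log2 change -1.42, p = 0.0108, adjusted p = 0.841, from the authors' deposited table). Penk (ENSMUSG00000045573, chromosome 4, 4133531 to 4138819, minus strand) stood at 2.01 and 0.583, a mean 71% lower (log2 change -1.58, p = 0.0703, adjusted p = 1, from the authors' deposited table). None of these 3 passed. Their log2 changes thus lay close together, and their summed means were 10.8 (control) and 3.48 (Meis2-CKO), 3.1-fold lower. A log2 fold change of -1 or below was found for these 3 of the 6 listed members and for 2.33% of all genes. Of the 394 such genes in the whole table, 217 had a higher mean below 1. With a pseudocount of 1 in place of the small constant Penk lay at -0.93, which leaves Drd2 and Adora2a below -1.
Drd2, chr9:49340153-49340402, plus strand: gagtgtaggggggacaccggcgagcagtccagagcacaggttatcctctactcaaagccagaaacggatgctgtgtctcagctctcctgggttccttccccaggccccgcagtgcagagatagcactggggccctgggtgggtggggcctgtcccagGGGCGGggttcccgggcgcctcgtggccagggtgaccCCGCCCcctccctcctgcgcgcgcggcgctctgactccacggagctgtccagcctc
The Drd2 window, shown as that of a receptor gene with a large difference in means, held 2 GC boxes, from -93 to -88 and, on the opposite strand, from -56 to -51. It held none of the other 3 motifs, and the printed bases are 68.8% G and C.

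Among relatives of the 2 receptors, Drd1 and Adora1 had lower means in Meis2-CKO and Adora2b a higher one, and none passed. Drd1, the dopamine receptor of direct-pathway neurons, stood at 1.35 (control) and 0.328 (Meis2-CKO) by the authors' deposited table (log2 change -1.69, p = 0.105), next to -1.65 for Drd2. The signal of Drd2 divided by that of Drd1 was 2.67 (control) and 3.21 (Meis2-CKO). Drd3, Drd4 and Drd5 were not listed. Adora1, which encodes the inhibitory A1 receptor found in many neurons, stood at 3.74 and 1.38 by the authors' deposited table (log2 change -1.35, p = 0.0349, adjusted p = 1). Adora2a divided by Adora1 was 1.38 (control) and 1.34 (Meis2-CKO), so the means of these adenosine receptors differed between genotypes by almost the same factor. Adora2b stood at 0.18 and 0.53 by the authors' deposited table, the opposite direction at a very low level.

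Genes that handle adenosine itself had nearly equal means. The kinase gene Adk stood at 20.7 and 22.7, the nucleoside transporter genes Slc29a1 at 22.3 and 22.1 and Slc29a2 at 6.01 and 5.49, and the deaminase gene Ada at 2.22 and 2.53, in control and Meis2-CKO by the authors' deposited table. Of 9 adenosine genes looked up, 7 were listed, none passed, 4 lay below 0, and the median log2 fold change was -0.002. Adora3 and Nt5e were not listed.

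Among opioid genes, Oprm1 (the mu receptor) stood at 0.613 and 0.11 and Oprk1 (the kappa receptor) at 0.573 and 0.122 by the authors' deposited table, both low throughout. Oprl1, the nociceptin receptor gene and the best expressed of the list, stood at 15.1 and 12.1 by the authors' deposited table (log2 change -0.30, p = 0.276). The other peptide precursor genes were Pomc, at 1.45 and 1.68, and Pnoc, at 0.812 and 0.765, by the authors' deposited table. Of 8 opioid genes, 6 were listed, 5 of these lay below 0 and none passed, with a median log2 fold change of -0.89. Pdyn and Oprd1 were not listed. Of the receptors closest to Gpr6, Gpr12 stood at 1.3 in both genotypes after rounding, and Gpr3 at 0.24 (control) and 0.083 (Meis2-CKO), by the authors' deposited table.

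**Figure D3:**
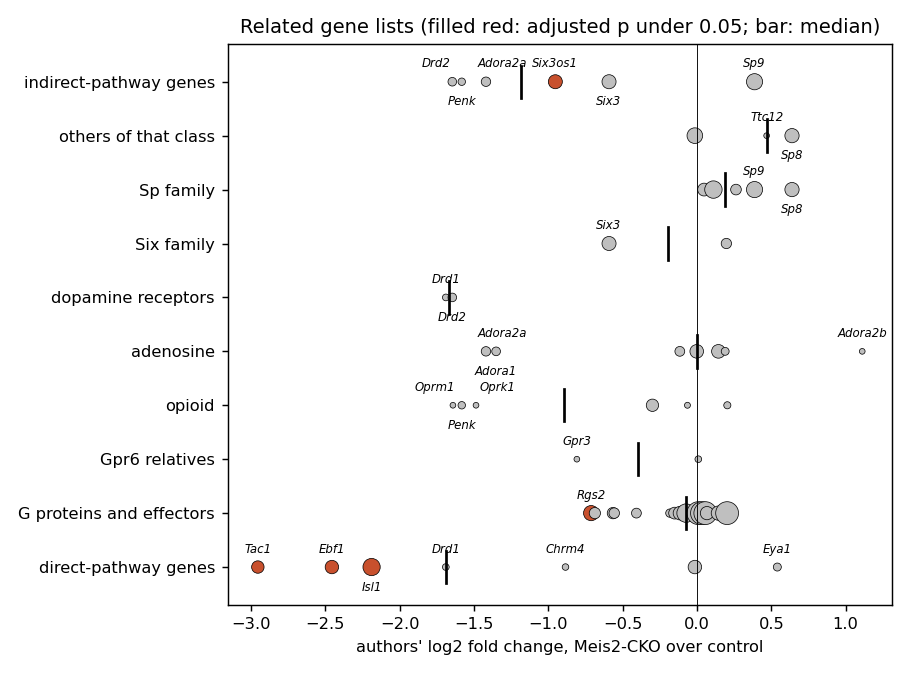
Authors' log2 fold change of every listed gene in 10 lists, as points whose area grows with the higher group mean, red where the adjusted p is under 0.05, with a bar at each list's median; a gene can be in more than 1 list. The Sp genes all lie above 0, Drd2, Penk and Adora2a lie between -1.65 and -1.42, and the points past the threshold are Six3os1, Rgs2, Isl1, Ebf1 and Tac1.

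How large a difference had to be to pass depended on the level. The calls counted here use the deposited adjustment over all genes. Among genes of 300 nt of exon or more whose higher mean was from 2 to below 5, the range that holds Drd2 and Penk, 3 of 2105 passed, and the smallest log2 fold change among them was 2.91 in size. Drd2 (-1.65) and Penk (-1.58) lay well short of that. From 5 to below 10, where Adora2a lies, 10 of 2056 passed and the smallest was 1.6 in size, against 1.42 for Adora2a. The gene with that smallest change, Rph3a, had a control mean of 9.51, near the top of the range, whereas Adora2a (5.18) lies near its foot. Stra6l, at 5.035 in control with a log2 change of -1.82, did not pass. From 20 to below 50, the range of Six3, Six3os1 and Sp9, 21 of 3214 passed and the smallest was 0.71 in size, below that of Six3os1 (0.95 in size) and above those of Six3 (0.59) and Sp9 (0.39). That smallest one is Rgs2, which did not pass when p-values were adjusted over genes of 300 nt or more alone. Below a higher mean of 1 none of 2819 genes passed, and from 1 to below 2 none of 1544, although 159 and 37 of these had a log2 change of -1 or below. From 2 to below 5, 15 of 2105 genes had such a change, and 3 of these passed. From 5 to below 10 it was 18 of 2056, of which 9 passed. For the receptors and the peptide, a p that misses the threshold says little about whether the levels differ.

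**Figure D4:**
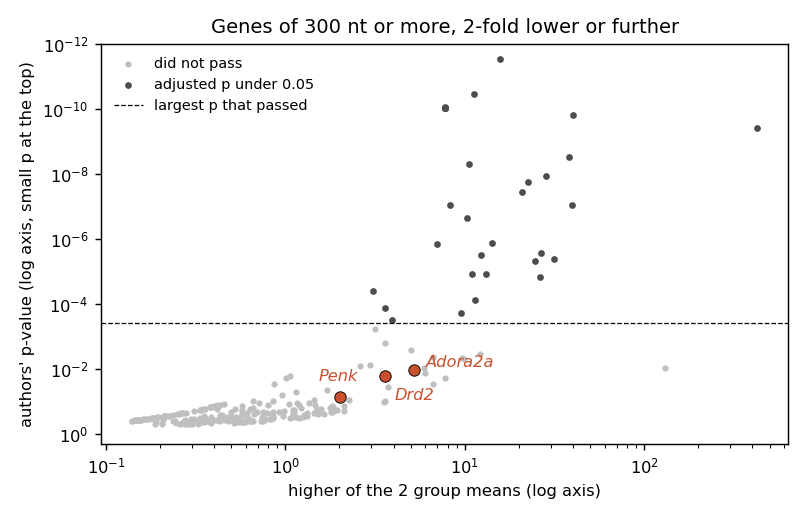
Authors' p-value (log axis, small at the top) against the higher group mean (log axis) for 251 genes of 300 nt or more with a log2 fold change of -1 or below; 7 genes with a p under 1e-12 lie beyond the axis. Adora2a, Drd2 and Penk lie with other genes of their level, under the dashed line at the largest p that passed (0.000372), and dark points are genes past the threshold.

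Ranked against the 13899 genes with a higher mean of at least 1, the members with lower means lay far down the list. The number of these genes with a still lower log2 fold change was 101 for Drd2, 106 for Penk, 121 for Adora2a, 188 for Six3os1 and 367 for Six3. For Sp9, 407 genes had a higher one. These ranks describe the deposited fold changes and carry no error. They pool all levels, although fold changes spread wider at low means, where Drd2, Penk and Adora2a lie. Penk met the filter only through its control mean (2.01, against 0.583 in Meis2-CKO).

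Downstream of the receptors, most genes of the cyclic AMP pathway had similar means in the genotypes. Of 17 genes for G proteins, adenylyl cyclase and striatal effectors, all were listed, 1 fell, none rose, and the median log2 fold change was -0.07. Rgs2, a regulator of G-protein signalling, fell 1.64-fold by the authors' deposited table, from 34.7 to 20.9 (adjusted p = 0.036); this call was lost under the Benjamini-Yekutieli adjustment (adjusted p = 0.372) and among genes of 300 nt or more (adjusted p = 0.0815). Gnal, the G-protein subunit that couples Drd1 and Adora2a to adenylyl cyclase in the striatum, stood at 10.4 and 6.34 by the authors' deposited table, short of the threshold (log2 change -0.69, p = 0.0515). Adcy5, the main striatal adenylyl cyclase, stood at 4.05 and 3.91 by the authors' deposited table. Pde10a (10.8 and 7.21), Gng7 (7.9 and 5.285), Arpp21 (6.075 and 4.51) and Ppp1r1b (12.6 and 11.2) also had lower means in Meis2-CKO and did not pass. Pde1b (24.6 and 26.9) and Rgs9 (2.97 and 3.235) had higher means in Meis2-CKO and did not pass either. Of the 17 genes, 10 lay below 0 and 7 above.

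The other indirect-pathway genes that were listed had nearly equal or higher means in Meis2-CKO. Of 8 looked up, 3 were listed: Grik3, a kainate receptor subunit gene, at 39.1 (control) and 38.4 (Meis2-CKO), Sp8, given above, and Ttc12 at 0.45 and 0.665, by the authors' deposited table. None passed, and 2 of the 3 lay above 0. These were Sp8, which is also counted in the Sp list, and Ttc12, which is at a very low level (p = 0.676, from the authors' deposited table). Gpr52, Gprin3, Upb1, Plxdc1 and Oprd1 were not listed.

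The 3 direct-pathway genes that passed had larger differences than any indirect-pathway gene, at levels like those of the regulators. They were singled out because they passed, so this comparison does not cover the whole direct-pathway list. In the authors' deposited table Isl1, Ebf1 and Tac1 fell, with log2 changes of -2.19, -2.46 and -2.95, and their control means of 57.9, 21.3 and 15.6 span those of Six3 and Sp9. Tac1 and Penk are the peptide precursor genes that mark the 2 pathways, and Penk divided by Tac1 was 0.129 (control) and 0.308 (Meis2-CKO). Of 9 direct-pathway genes, 7 were listed and 3 fell, with a median log2 fold change of -1.69, against 1 of 6 and a median of -1.19 for the indirect-pathway genes. The 7 listed direct-pathway genes ran from -2.95 to 0.54, with 6 below 0 and 1 above. Of those that did not pass, Drd1 lay at -1.69, Chrm4 at -0.88, Sfxn1 at -0.01 (control mean 21.6) and Eya1 at 0.54. The difference between the 2 lists was not tested. In the plot of all genes the direct-pathway calls lie at levels where smaller differences also passed.

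**Figure D5:**
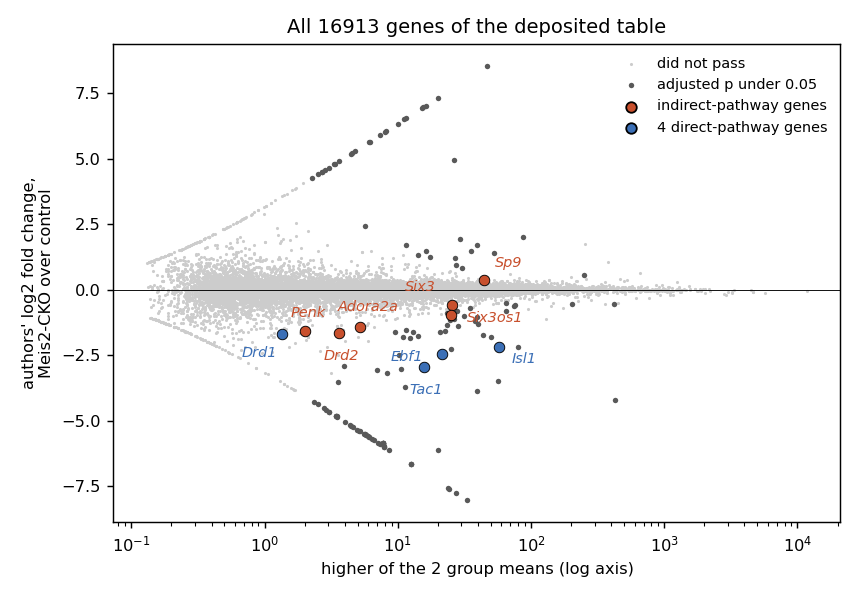
Authors' log2 fold change against the higher group mean (log axis) for all 16913 genes. Dark grey marks genes past an adjusted p of 0.05, and red the 6 listed indirect-pathway genes. Blue marks the 4 of 7 listed direct-pathway genes with a log2 fold change of -1 or below. Grey points spread wider towards low means, where Drd2, Penk and Adora2a lie, and Isl1, Ebf1 and Tac1 stand below Six3, Six3os1 and Sp9 at like levels; genes listed at 0 in 1 genotype form the slanted lines.

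No listed gene next to the members on the chromosome passed the threshold. Within 100000 bases of the 7 genes, 12 of 34 other annotated genes were listed, the short RNAs at Six3 among them. The 8 protein-coding ones had log2 fold changes from -0.27 to 0.47 (Ttc12, given above) and no p below 0.47. Specc1l, which ends 4134 bases upstream of Adora2a on the same strand, stood at 30.6 (control) and 30.4 (Meis2-CKO) by the authors' deposited table. Ncam1, beyond the 3′ side of Drd2, stood at 47.2 and 49.4 by the authors' deposited table. A noncoding gene, A830012C17Rik, overlaps 14.3% of the exonic bases of Penk on the opposite strand and was not listed.

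Some other gene groups had summed means that differed between the genotypes, and for others they lay close together. All 12 progenitor genes looked up had a log2 fold change above 0 (median 0.24, summed mean 2308 in control, 2643 in Meis2-CKO), and 9 of 12 genes of young neurons lay below 0 (median -0.21, summed mean 2097 and 1881); none of either list passed, although 6 of the young neuron genes and 3 of the progenitor genes had an unadjusted p under 0.05. Of 7 markers of dorsal LGE and olfactory bulb interneurons, a lineage that also uses Sp8 and Sp9, 5 lay above 0. Their summed means over all 7 were 143 and 175, and none passed. Sp8 is itself in this list, with its highest log2 change, so its value given above is counted again here. Summed means of medial eminence markers were 168 and 169, of endothelial markers 54.8 and 56.6 and of microglial markers 42.6 and 43.9, with no call in any of these lists. Pallial glutamatergic markers, of the neighbouring cortex, had summed means of 151 and 173, with 6 of 7 above 0 and a median log2 change of 0.15, and none passed. Of these, Neurog2, a pallial progenitor factor, had a log2 change of 0.52 (p = 0.0155, from the authors' deposited table). Septal markers had summed means of 57.1 and 57.5, with 3 of 4 below 0, a median of -0.35 and no call. Of 5 meningeal fibroblast genes, 4 lay below 0, 3 of them at -1 or below, with a median of -1.01. Their summed means were 4.01 and 2.18, and none passed. In the authors' deposited table the Y-linked genes Eif2s3y (50.5 and 14), Ddx3y (14.1 and 4.03) and Kdm5d (13.1 and 4.09) had lower means and passed, and Xist stood at 78 and 256; the labels do not give the sex of the embryos. The part of cell makeup or of sex in the values of the indirect-pathway genes was not tested.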

How the data were processed

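Total RNA was purified on columns and made into Illumina libraries, per the labels' protocols. The submitters' processing notes name HISAT2 (2.1.0), StringTie (1.3.1), FastQC (0.11.5) and, as builds, mm10 and GRCm38.p2, but not what each was used for. The deposited expression signal is the authors' mean per genotype; the log2 fold change, the p-value and its adjusted form are also as the authors deposited them, and no source used here names the tool behind them. The log2 fold change lay within 0.03 of the log2 ratio of the means with 0.1 added to each for 93.5% of genes, so it understates the change of low genes. Benjamini-Hochberg adjustment gives the deposited adjusted p over all 16913 genes. Median control signal went from 9.44 in the shortest of 5 length bins of protein-coding genes to 14.2 in the longest, so the signal was read as scaled by length.

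The table has 8 further columns of single libraries whose names match no sample label. They were not used, so no test on libraries, left-out sample or sex covariate was run, and no likeness of expression pattern is given. Where nothing says that samples came from separate embryos, p-values measure only the spread the authors' tool used.

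The members, the gene lists and the rule for named genes were chosen with earlier results of these data known. The rule took all members, every listed gene of the family lists, Meis2, and up to 3 called genes (or the 2 of smallest p) of each other list; lists not described held no call, and of the LGE transcription factors Foxp1, Zfp503 and Bcl11b also fell. Genes of the Six3 locus, neighbours, Gnal, Adcy5, Pde10a, Gng7, Arpp21, Rph3a and Stra6l were named after their values were seen. So were Pde1b, Rgs9, Ppp1r1b, Chrm4, Sfxn1 and Eya1. Some genes of the lists are not reported here. GENCODE M21 gave positions and exon lengths (GRCm38, matched by gene ID for 16861 genes). The adjustments and the motif search were tested on simulated data. Alternatives were other adjustments, filters, pseudocounts and scalings. Scripts ran in Python 3.11.15 with pandas 2.3.3, numpy 2.4.6, matplotlib 3.10.9 and scipy 1.17.1.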

Additional observations from a re-analysis of the deposited data

How the results depend on the processing

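No paired analysis was possible because the columns of single libraries have names that match no sample label and were not mapped; for the same reason no sample was left out. The Benjamini-Yekutieli adjustment left 0 members called lower, in place of 1. Filters on a higher mean of at least 1 or 2, the restriction to genes of 300 nt or more and, added after the data were seen, to longer coding and noncoding genes without the sex-linked ones kept Six3os1 past the threshold (adjusted p from 0.00742 to 0.0291) and brought no other member past it. A fold change of at least 1.5 kept that call too. With p-values adjusted anew over the kept genes, the 132 calls over all genes became 51 among genes of 300 nt or more and 41 under the added restriction. No setting called a member higher. Every log2 fold change of the 6 members kept its sign under a pseudocount of 1, centring, division by column sums and, added later, the plain ratio of means. These moved Penk between -1.79 and -0.93, Drd2 between -1.77 and -1.16 and Adora2a between -1.49 and -1.12, so that Penk no longer lay at -1 or below with a pseudocount of 1. With the promoter window shortened to 100 bases before the start, 1 member in place of 2 held TGACAG (Gpr6, not Six3) and 1 in place of 3 held GGGCGG (Drd2). Depth and spread between embryos are unknown.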
